A study of Mus musculus with 2 samples.

Results

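Auts2, Camta1, Nav2, Asic2, Phactr3 and Ptprn2 are long genes with neuronal functions, described here for their accessible chromatin away from promoters in mouse hippocampus. They were chosen by a measured value, at least 20 distal regions found in both libraries, so that count is a description of the choice and supports nothing. The 6 genes are 6 of 21938 protein-coding genes of GENCODE mouse M21, of which 11 reached the threshold (0.0501% of genes). Their loci held 129 of the 26833 shared distal regions of the genome. The assay was DNase-seq: nuclei are treated with DNase I, an enzyme that cuts DNA free of nucleosomes, and the cut ends are sequenced. The material was labelled as a layer of hippocampus and came from male mice of the strain B6CASTF1/J aged 10 days. These animals are first-generation hybrids of C57BL/6J and CAST/EiJ, and both parental genomes are read together against mm10. There was 1 group of 2 libraries, biological replicates 1 and 2, each from a tissue sample described as 3 males. No second condition is named, and all values below are descriptions with no test.

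Both replicates carry the same donor label, and the labels leave it unsaid whether any animal is in both. The spread between them covers these 2 samples only and may be partly technical. Because sequencing depth is not given in the sources here, no counting interval could be attached to a value. The replicates differed in yield, with 54546 regions in the shorter deposited list of replicate 1 and 74278 in that of replicate 2. Tissue markers were checked at promoters. Of 16 marker genes, 12 had a region at a start in both libraries, among them Rbfox3, Snap25, Syt1 and Map2 of neurons, Neurod2, Neurod6, Zbtb20, Prox1, Emx1 and Lhx2 of hippocampal or cortical excitatory neurons, together with the glial markers Gfap of astrocytes and Olig2 of the oligodendrocyte lineage. Cx3cr1 of microglia and Alb, Acta1 and Myh6 of other organs had none. In bulk tissue, a region open in fewer cells and a region cut less often per cell cannot be told apart.

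Distal accessible regions are candidate enhancers, insulators or silencers. They carry transcription factors, which can leave footprints, short stretches protected from cutting inside open DNA. Long genes of neurons often span very long introns and use several alternative starts, so that much of the sequence around their promoters is their own intron. AUTS2 joins a noncanonical polycomb complex and acts in the nucleus and on the cytoskeleton of developing neurons. CAMTA1 is a calmodulin-binding transcription activator. NAV2 is a neuron navigator, a cytoskeleton-associated protein of neurite growth. ASIC2 is a subunit of acid-sensing ion channels, PHACTR3 binds protein phosphatase 1 and actin, and PTPRN2, also called phogrin, is a membrane protein of dense core vesicles.

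The sequence of 1 tall intronic shared distal region of each gene is shown, because these are the elements that stood out most along the gene bodies. Positions are of mm10 (GRCm38), letters are the plus strand, 5′ to 3′, of the reference genome, and capitals mark matches to the 11 motifs described further on. Here and below, regions of a gene are ordered by their mean rank of height over both libraries. For Auts2 the region shown is the first intronic one in that order of at most 300 bases. For the other 5 genes it is the tallest shared distal region in each library.
Auts2, chr5:132231741-132231940: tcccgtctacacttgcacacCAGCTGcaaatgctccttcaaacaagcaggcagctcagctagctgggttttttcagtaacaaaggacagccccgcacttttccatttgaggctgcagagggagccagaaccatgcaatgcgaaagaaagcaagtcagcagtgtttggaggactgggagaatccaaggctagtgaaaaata
Camta1, chr4:151141621-151141840: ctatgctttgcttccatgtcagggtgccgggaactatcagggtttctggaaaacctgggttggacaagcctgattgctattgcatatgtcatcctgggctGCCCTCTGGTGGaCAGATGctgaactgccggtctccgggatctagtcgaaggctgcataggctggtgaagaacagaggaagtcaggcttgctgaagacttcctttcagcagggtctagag
Nav2, chr7:49121381-49121580: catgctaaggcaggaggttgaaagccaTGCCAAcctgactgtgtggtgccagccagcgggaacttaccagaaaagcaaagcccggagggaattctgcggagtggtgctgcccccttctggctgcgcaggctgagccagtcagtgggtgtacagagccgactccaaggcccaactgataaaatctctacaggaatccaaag
Asic2, chr11:81613361-81613520: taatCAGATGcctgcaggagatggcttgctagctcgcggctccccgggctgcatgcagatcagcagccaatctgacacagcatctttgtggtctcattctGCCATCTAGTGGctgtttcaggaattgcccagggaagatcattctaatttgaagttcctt
Phactr3, chr2:178264501-178264700: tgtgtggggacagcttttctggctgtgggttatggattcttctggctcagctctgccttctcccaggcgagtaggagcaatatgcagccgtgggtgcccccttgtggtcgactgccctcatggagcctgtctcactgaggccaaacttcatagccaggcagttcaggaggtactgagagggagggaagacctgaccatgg
Ptprn2, chr12:116620041-116620220: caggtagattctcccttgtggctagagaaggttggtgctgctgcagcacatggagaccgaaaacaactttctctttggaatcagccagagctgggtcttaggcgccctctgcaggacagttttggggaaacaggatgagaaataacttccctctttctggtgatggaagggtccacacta
The Camta1 and Asic2 regions each held a match to the CTCF consensus, in both cases from base 101 to base 112 of the region, and a NEUROD-type E-box, CAGATG. The Nav2 region held a nuclear factor I element, TTGGCA (read on the minus strand), and the Auts2 region an ASCL-type E-box, CAGCTG. The Phactr3 and Ptprn2 regions held no match to any of the 11. Only full matches were marked, so sequence that resembles a motif without matching it stays in lower case.

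**Figure D1:**
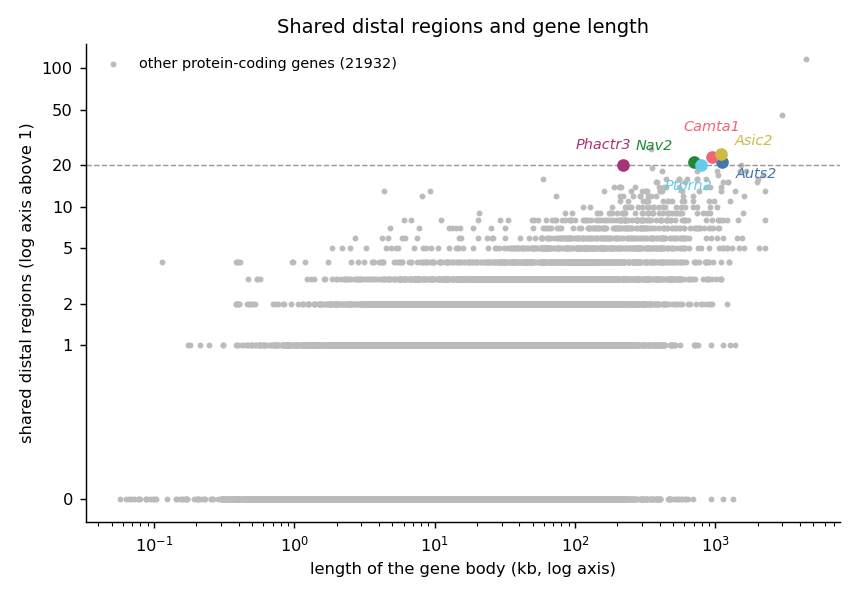
Number of shared distal regions (vertical axis, log above 1) against the length of the gene body (horizontal axis, kb, log) for all 21938 protein-coding genes, with the 6 genes coloured. The dashed line is the threshold of 20 regions; Phactr3, at 219.5 kb, lies far to the left of the other 5.

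A locus was the gene body with 10 kb on either side, a distal region lay more than 1000 bp from every annotated start, and a region was shared where it overlapped a region of the other library. Asic2 held 24 shared distal regions, Camta1 23, Auts2 and Nav2 21 each, and Phactr3 and Ptprn2 20 each. Among the 842 protein-coding genes with bodies as long as those of the members, from 219.5 to 1106 kb, the median was 3 and 78 genes had none. In that class 8 genes reached 20 (0.95%). Just inside the threshold lay Auts2 and Nav2 with 21 and Phactr3, Ptprn2 and Rbfox1 with 20. Just outside lay Gse1 with 19 and Csmd1, Nfib, Pde4d, Tenm4 and Zfhx3 with 18. The members and the genes just outside the threshold thus differed by as little as 1 region. The threshold alone does not set who is described here, since genes such as Rbfox1 and Ntm also reached it; the members were named as a set of 6.

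The order by density differed from the order by count. Per 100 kb of locus, Auts2 held 1.86 shared distal regions, Asic2 2.17, Camta1 2.38, Ptprn2 2.47, Nav2 2.91 and Phactr3 8.35. The median over the 842 genes of like length was 0.872, and 8.35 was the highest value among them. These densities rest on the count by which the members were chosen. Phactr3 is the shortest of the members at 219.5 kb, while Auts2 spans 1106 kb, Asic2 1088 kb, Camta1 945 kb, Ptprn2 791 kb and Nav2 701 kb. Nearly all of these elements were inside introns: 120 of 129 were intronic, 3 touched an exon (2 in Ptprn2 and 1 in Asic2) and 6 lay in the 10 kb flanks. A single region, in Camta1, fell in the body of another protein-coding gene. Regions at promoters of other genes had been left out, 5 at Camta1, whose body overlaps Tnfrsf9, Uts2, Per3, Vamp3 and Gm13090, 2 at Auts2 and 1 each at Nav2 and Asic2. Within 10 kb of a start of their own gene lay 22 regions, 11 of them at Phactr3.

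**Figure D2:**
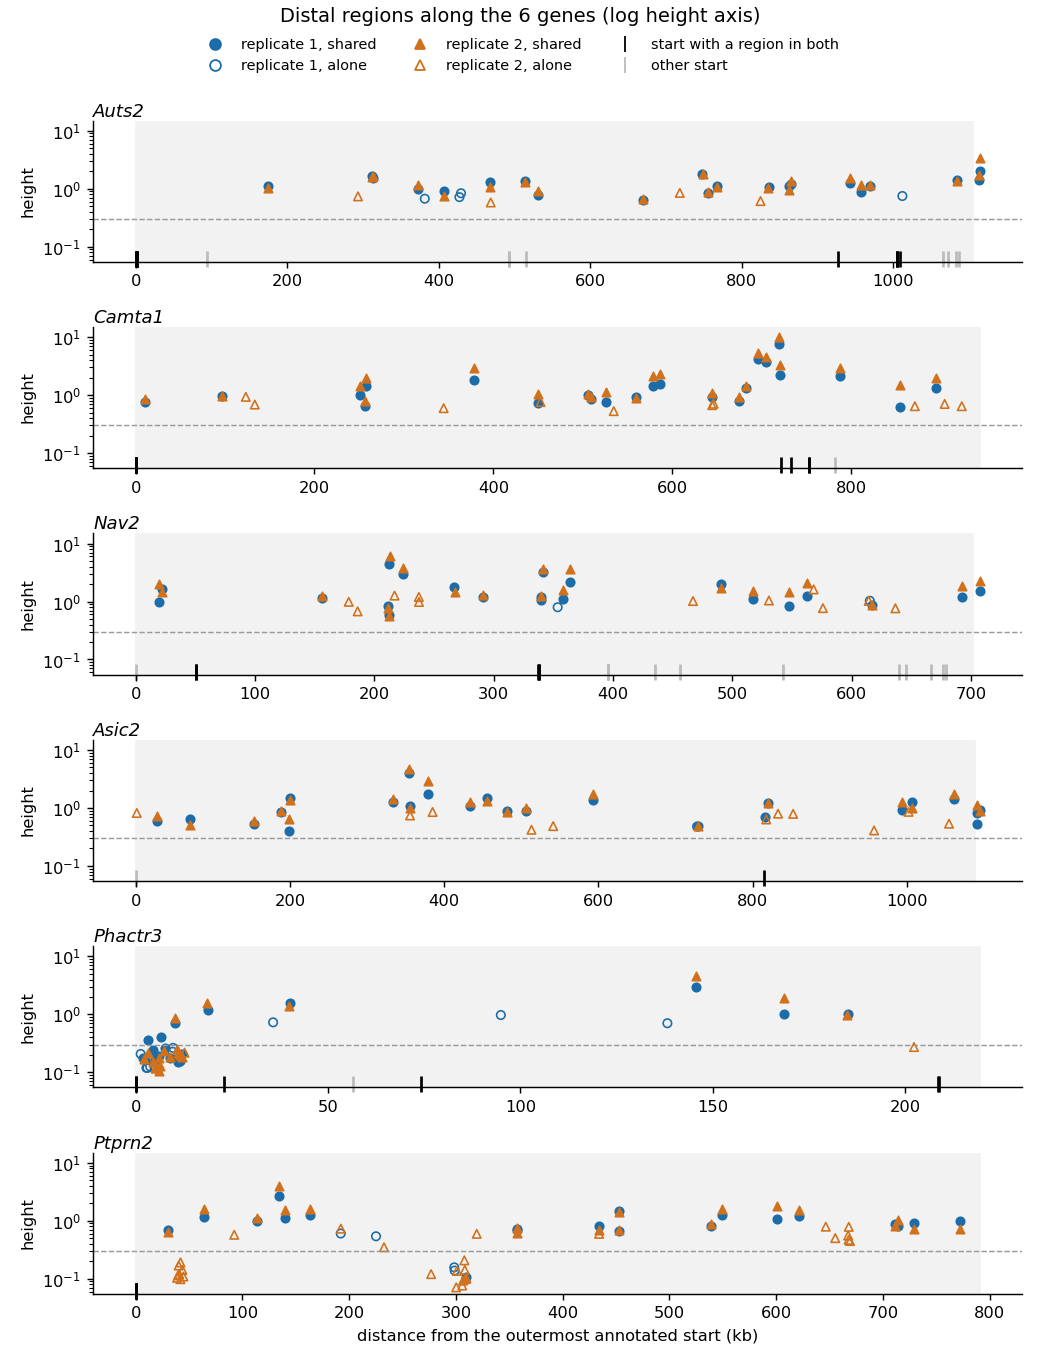
Height of each distal region (vertical axis, log) against its distance from the outermost annotated start in the direction of transcription (horizontal axis, kb), in replicate 1 (blue circles) and replicate 2 (orange triangles), filled where shared and open where found in 1 library alone. Grey shading is the gene body, ticks are annotated starts, black where both libraries had a region within 1000 bp, and the dashed line marks a height of 0.3; the dense low cloud at Phactr3 lies within 13 kb of its first start.

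Height is the signal the authors deposited for each region, on a scale of each library's own. Over the 129 shared distal regions its median was 1.02 in replicate 1 and 1.15 in replicate 2, beside 1.04 and 1.27 over all shared distal regions of the genome. As a set, the members' elements were therefore of ordinary height. By gene, the medians in replicates 1 and 2 were 1.21 and 1.55 for Nav2, 1.12 and 1.15 for Auts2, 1.02 and 1.45 for Camta1, 0.936 and 0.970 for Ptprn2 and 0.927 and 1.13 for Asic2. Those of Phactr3 were 0.226 and 0.205, apart from the other 5 in both libraries. The order of the other 5 is not the same in both libraries. Height ranked regions alike in the replicates, with a Pearson correlation of log2 heights of 0.95 and a Spearman correlation of 0.884 across the 129 regions; over the genome they were 0.92 and 0.906. These points share 2 libraries and the low Phactr3 regions widen the range, so the correlations are descriptions only.

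**Figure D3:**
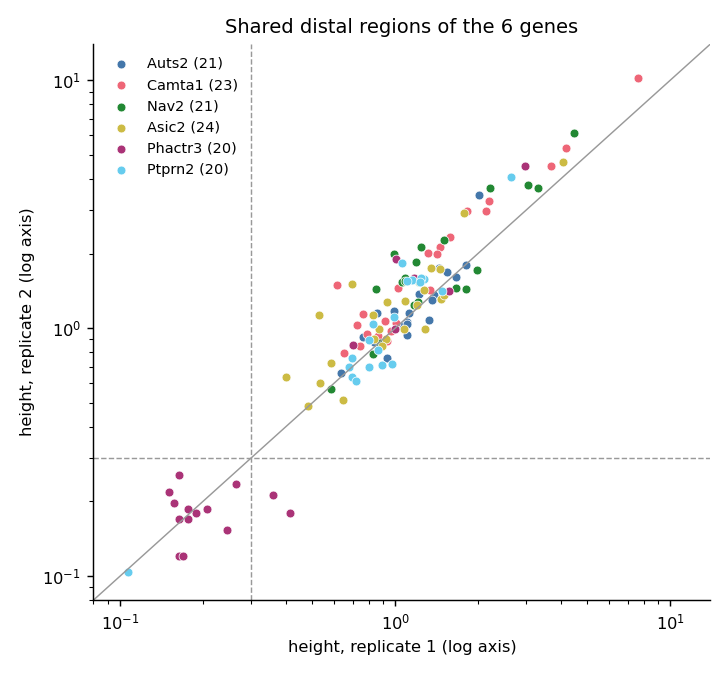
Height in replicate 2 against height in replicate 1 (both axes log) for the 129 shared distal regions, coloured by gene, with the number of regions in the legend. The diagonal marks equal values and the dashed lines a height of 0.3; of the 13 regions under 0.3 in both libraries 12 belong to Phactr3 and 1 to Ptprn2.

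Camta1 had the tallest distal region of the 6 genes. The element at chr4:151141621-151141840 reached 7.66 in replicate 1 and 10.2 in replicate 2, above 99.9% of distal regions in each. This is above the gene's own promoter region at the outermost start, chr4:151861841-151861980, with 6.85 and 9.85. It lay 720 kb behind that start and 2.15 kb from a nearer start of Camta1, and held 6 footprints in replicate 1 and 3 in replicate 2. The next tallest, chr4:151165601-151165800 with 4.19 and 5.34 and chr4:151157041-151157240 with 3.67 and 4.52, stood 26.1 and 17.6 kb from the nearest start. The fourth, chr4:151140721-151140920 with 2.19 and 3.26, adjoined the first. The 4 tallest distal regions of Camta1 thus lay between 696 and 721 kb behind the outermost start, next to a group of internal starts. In Camta1, 16 of the shared distal regions lay beyond the midpoint of the body and 7 before it. All 23 distal regions of replicate 1 were found in replicate 2.

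Nav2 had several tall regions deep in the gene. The tallest, chr7:49121381-49121580, measured 4.48 in replicate 1 and 6.11 in replicate 2 and lay 125 kb from the nearest annotated start of the gene. The next were chr7:49250101-49250300, with 3.29 and 3.66, at 3.36 kb from an internal start, and chr7:49132821-49133020, with 3.04 and 3.79. A further one, chr7:49272561-49272740, had 2.22 and 3.67 and so stood above the former in replicate 2. Nav2 also held more CTCF matches than any other of the 6 genes, in 7 of its 21 regions.

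Asic2 had 1 region that stood apart from the rest of its gene. At chr11:81613361-81613520 the heights were 4.09 and 4.66, and the second, chr11:81588741-81588940, had 1.77 and 2.92. The next by mean rank, chr11:80906561-80906760, had 1.45 and 1.74, close to several others, and was exceeded in replicate 1 by chr11:81767781-81768060 with 1.51 and 1.36. The tallest lay 355 kb from the nearest annotated start of Asic2.

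Auts2 had the most even set. Its shared distal regions spanned heights of 0.635 to 2.02 in replicate 1, and in replicate 2 of 0.661 to 3.44. The upper ends belong to a region behind the gene's 3′ end, chr5:131428121-131428300. Inside the body the first by mean rank were chr5:131794621-131795020, 400 bp wide, with 1.81 and 1.80, and chr5:132231741-132231940, with 1.66 and 1.61. A neighbour, chr5:132229721-132229940, had 1.54 and 1.68 and was thus the taller of the latter pair in replicate 2. Auts2 had no region with a CTCF match, and all of its 21 regions held a footprint in both libraries.

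Ptprn2 had 1 tall region, chr12:116620041-116620220, with 2.63 and 4.06, at 134 kb behind its starts. The next by mean rank, chr12:116938221-116938420, measured 1.48 and 1.41, and the one after it, chr12:116648681-116648860, 1.27 and 1.58. That order did not hold in replicate 2, where chr12:117086046-117086240, with 1.06 and 1.83, came after the tallest. No shared distal region of Ptprn2 lay within 10 kb of a start of the gene, and the median distance was 443 kb.

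Phactr3 had 5 shared distal regions of ordinary height spread over its body, the tallest at chr2:178264501-178264700 with 2.97 and 4.52. The others were at chr2:178159081-178159360 with 1.57 and 1.41, chr2:178137649-178137809 with 1.17 and 1.59, chr2:178287438-178287578 with 1.01 and 1.90, and chr2:178304045-178304114 with 0.999 and 0.989. The remaining 15 were packed into 10.3 kb of the first intron, chr2:178120870-178131151, from 1.90 to 12.2 kb behind the outermost start. That stretch held 21 regions in replicate 1, 15 of them shared, and 14 wholly inside it in replicate 2, all shared. A further shared region of replicate 2, of 0.186, began at 12.05 kb, crossed the end of the stretch and is not counted in it. Regions of 1 library can overlap: chr2:178121421-178121640 lies inside chr2:178120870-178121640, and both met the same region of replicate 2. The 15 are therefore entries of a list and not 15 separate elements. The regions covered 49.0% of the stretch in replicate 1 and 38.5% in replicate 2. Their median height was 0.176 and 0.183, and 12 of the 15 shared ones were under 0.3 in both libraries. The exceptions in 1 library or both were chr2:178122181-178122460 with 0.358 and 0.213, chr2:178125641-178125860 with 0.415 and 0.180, and chr2:178129241-178129460 with 0.704 and 0.858. The limit of 0.3 was chosen after the heights were seen.

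**Figure D4:**
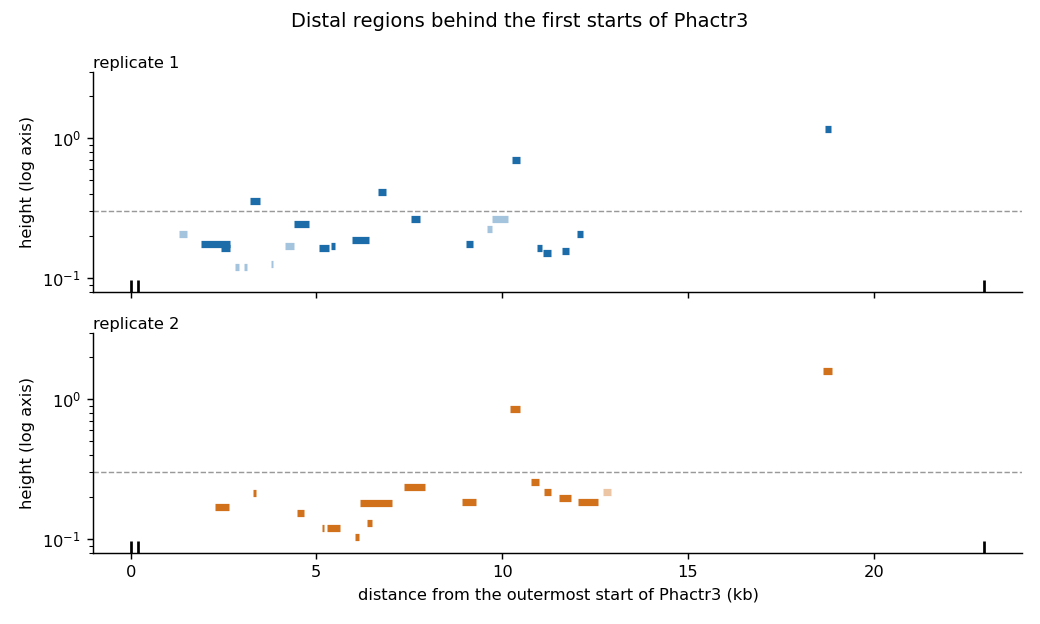
Distal regions of Phactr3 near its first starts in replicate 1 (upper panel) and replicate 2 (lower panel): each bar spans 1 region (horizontal axis, distance from the outermost start in kb) at its height (vertical axis, log), pale where found in that library alone. Ticks are annotated starts and the dashed line a height of 0.3; regions crowd between 1.90 and 12.2 kb in both libraries, and 1 of them, at about 10.4 kb, rises above the line in both.

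Such low regions were rare in the genome. Of all shared distal regions, 107 of 26833 (0.399%) were under 0.3 in both libraries, and 13 of these lay at the members, 12 at Phactr3 and 1 at Ptprn2. Since Phactr3 was chosen on its number of regions, and these made up most of that number, the share of 10.1% at the members is a description of the choice. Without regions under 0.3, Phactr3 kept 6 shared distal regions and Ptprn2 19, while Auts2, Camta1, Nav2 and Asic2 kept all of theirs. Counting neighbours less than 1 kb apart as 1 gave 7 at Phactr3, and asking for reciprocal overlap of 50% gave 8.

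The low regions of Phactr3 had false discovery rates near those of regions of ordinary height. The authors' lowest rate per base inside a region had a median of 2.09e-07 in replicate 1 and 1.51e-10 in replicate 2 over the 12 regions under 0.3. Over all 15 shared regions of the stretch it was 5.01e-08 and 9.88e-11. Over the 114 other shared distal regions of the 6 genes it was 5.98e-08 and 7.40e-10, at median heights of 1.09 and 1.31, so that the 12 low regions had a higher median rate in replicate 1 and a lower one in replicate 2. Regions outside the stretch with heights of 0.5 to 0.9 in both libraries, 19 in number, had medians of 1.13e-05 and 5.17e-06. The region at chr2:178129241-178129460 reached 4.19e-33 and 1.91e-59, with 6 and 8 footprints, at heights of 0.704 and 0.858. The tallest Phactr3 region reached 8.37e-30 and 5.00e-45 at heights of 2.97 and 4.52. In this stretch, then, height and false discovery rate gave different pictures of the same DNA. What sets this difference was not tested. The GC content of the stretch was 49.6%, and 14.2% of its bases were masked as repeats.

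**Figure D5:**
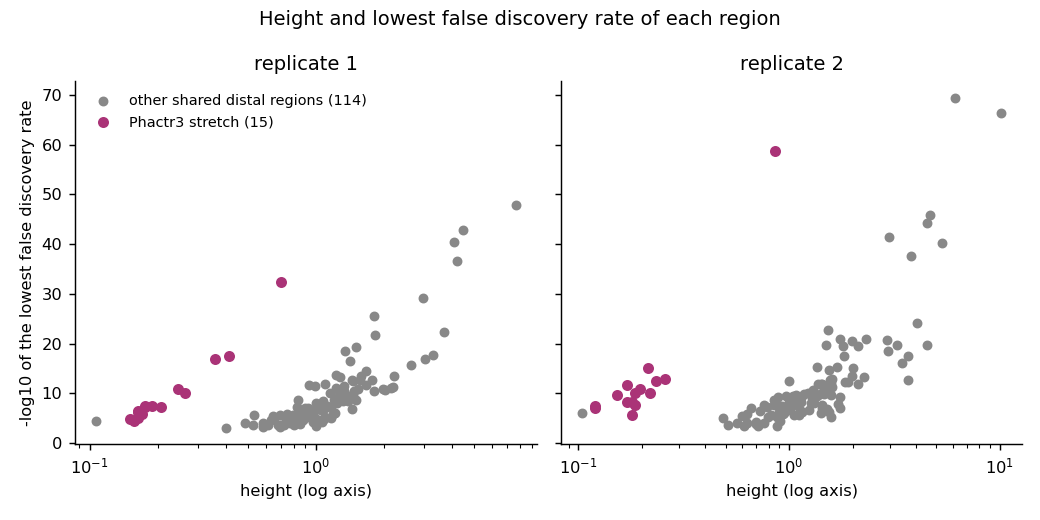
Negative log10 of the lowest false discovery rate inside each region (vertical axis) against its height (horizontal axis, log) in replicate 1 (left) and replicate 2 (right), for the 15 shared regions of the Phactr3 stretch (purple) and the 114 other shared distal regions of the 6 genes (grey). The Phactr3 points lie to the left of the grey ones at like false discovery rates in both libraries, with the exception of 1 grey point, a Ptprn2 region of 0.107 and 0.104.

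The first of the 12 low regions by mean rank is shown for its sequence, on the plus strand of mm10, with its single motif match, an AP-1 site, in capitals; its heights were 0.264 and 0.235 and it held 2 footprints in replicate 1 and 0 in replicate 2.
Phactr3, chr2:178126521-178126760: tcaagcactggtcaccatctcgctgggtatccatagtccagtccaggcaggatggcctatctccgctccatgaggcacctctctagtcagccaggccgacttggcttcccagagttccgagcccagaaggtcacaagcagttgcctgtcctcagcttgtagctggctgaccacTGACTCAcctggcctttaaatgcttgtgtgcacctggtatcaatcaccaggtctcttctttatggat

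Ptprn2 showed runs of low regions in replicate 2, and replicate 1 lacked the first of them. From 38.9 to 44.9 kb behind its outermost start, 8 regions of replicate 2 had heights from 0.0983 to 0.191. In replicate 1 no base of that interval was listed, even at a false discovery rate of 0.05, whereas replicate 2 listed 3886 bases. From 306 to 309 kb, 6 regions of replicate 2 had heights from 0.0765 to 0.208, and 1 of them was shared. Replicate 1 listed 137 bases of that interval at a rate of 0.05, and replicate 2 listed 1783. Replicate 1 alone had low regions, of 0.157 and 0.138, near 298.5 and 298.8 kb. Of the 47 distal regions of Ptprn2 in replicate 2, 27 were found in that library alone. The low run of Phactr3 was thus present in both libraries, and the first run of Ptprn2 in replicate 2 alone. Over the genome, runs of at least 5 regions under 0.3 that lay at most 2 kb apart numbered 44 in replicate 1 and 116 in replicate 2.

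The shares of regions found in the other library were otherwise near those of the genome. The members were chosen on their number of shared regions, so their shares describe the choice and are no measure of reproducibility. At the 6 genes, 129 of the 150 distal regions of replicate 1 had a counterpart in replicate 2, a share of 86.0%, beside 86.8% over the genome. Of the 191 in replicate 2, 65.97% had a counterpart in replicate 1, beside 59.2% over the genome. By gene, the share of replicate 1 regions found in replicate 2 was 100% at Camta1, 96.0% at Asic2, 91.3% at Nav2, 84.0% at Auts2, 83.3% at Ptprn2 and 66.7% at Phactr3. In the other direction it was 90.9% at Phactr3, 84.0% at Auts2, 69.7% at Camta1, 66.7% at Asic2, 64.5% at Nav2 and 42.6% at Ptprn2. Regions found in 1 library alone numbered 21 in replicate 1 and 65 in replicate 2, with median heights of 0.541 and 0.595. In the other library's longer list 11 of the 21 and 29 of the 65 were present, and 17 and 33 had a base listed in the other library. The same shares over the genome were not counted. At Phactr3, some regions of replicate 1 were in neither list of replicate 2 although bases there had low rates in replicate 2. The lowest of these rates was 7.85e-27. The longer list held 44 shared distal regions at Nav2, 43 at Asic2, 39 at Auts2, 37 at Camta1, 27 at Ptprn2 and 24 at Phactr3, 214 in all. The stronger 50% of regions gave 58 in all, of which 3 were at Phactr3.

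Shared regions were dispersed at 5 of the 6 genes. The median distance between neighbouring shared distal regions was 30.9 kb at Auts2, 25.9 kb at Asic2, 24.6 kb at Camta1, 22.9 kb at Ptprn2 and 20.01 kb at Nav2. At Phactr3 it was 0.790 kb. The widest gaps were 174 kb at Asic2, 155 kb at Camta1, 146 kb at Ptprn2, 139 kb at Auts2, 135 kb at Nav2 and 105 kb at Phactr3. A neighbour within 5 kb was seen for 15 of the 20 Phactr3 regions and for 6 to 9 regions at each other gene.

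Annotated starts of the genes were accessible to different degrees. A start was called accessible where both libraries had a region within 1000 bp. This held for 38 of 61 starts of the 6 genes, beside 48.8% of all distinct starts of protein-coding genes. All 6 genes had at least 1 accessible start. A region at a start in each library was present at 735 of the 842 genes of like length and at 13008 of all 21938 protein-coding genes. At Ptprn2 all 4 starts, within 0.113 kb of each other, shared a region of 1.11 in replicate 1 and 1.68 in replicate 2. At Camta1 10 of 11 starts were accessible, with up to 6.90 and 9.85 at the outer group and 1.72 to 2.26 and 2.69 to 3.39 at 4 internal starts. At Phactr3 6 of 7 were, the seventh with a region in the longer list alone, of 0.729 and 0.677. The tallest promoter region of Phactr3 differed by library: a region at a pair of starts 209 kb behind the outermost one had 1.40 and 2.02, and one at 23.0 kb had 1.57 and 1.63. The outermost start itself had 0.823 and 1.13.

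Auts2 had 12 of 20 starts accessible. The outer group of 7 starts, spread over 1.52 kb, had regions of up to 2.37 and 3.23, and the tallest also lay near a start of another gene. The other 5 lay from 927 to 1009 kb behind, with 0.673 to 1.67 in replicate 1 and 0.830 to 1.44 in replicate 2. Nav2 had 5 of 17 accessible, in 2 groups. At 50.4 kb behind the outermost start the region measured 2.90 and 2.67, and at 337 to 338 kb it measured 2.71 and 3.45. The outermost start of Nav2 had no region in either list of either library.

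Asic2 has 2 annotated starts, 815 kb apart, and they differed. The internal one had a region in both libraries, with 1.68 in replicate 1 and 2.34 in replicate 2. The outermost start had none in the shorter lists and 0.616 and 0.645 in the longer ones. Replicate 2 alone also had a distal region, of 0.819, that began 1.44 kb behind it. The 250 bases before each start in RefSeq (GRCm38.p6) are shown on the minus strand, 5′ to 3′ toward the start. They belong to 1 gene whose starts differed, with regions in the shorter lists at 1 and in the longer lists alone at the other. The first precedes the internal RefSeq start. RefSeq places the internal start at 81152903 and GENCODE at 81153321, and the outermost at 81968396 and 81968457. In the direction of transcription the first sequence therefore lies behind the internal GENCODE start, and the second spans the outermost one. Table entries matched Asic2, Camta1, Nav2 and Ptprn2.
Asic2, chr11:81152904-81153153: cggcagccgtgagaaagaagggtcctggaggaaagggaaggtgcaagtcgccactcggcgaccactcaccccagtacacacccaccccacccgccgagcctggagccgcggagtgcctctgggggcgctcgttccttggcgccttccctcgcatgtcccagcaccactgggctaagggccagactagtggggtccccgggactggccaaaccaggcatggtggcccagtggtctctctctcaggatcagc
Asic2, chr11:81968397-81968646: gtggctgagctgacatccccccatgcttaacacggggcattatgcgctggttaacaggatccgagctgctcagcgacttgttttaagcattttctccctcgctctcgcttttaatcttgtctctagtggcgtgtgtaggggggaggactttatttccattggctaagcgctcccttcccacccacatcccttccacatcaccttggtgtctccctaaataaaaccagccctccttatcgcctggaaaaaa
The sequence before the internal RefSeq start had 14 CpG dinucleotides and a GC content of 66.4%, that before the outermost 9 and 51.2%. Over a window of 501 bp centred on the GENCODE starts the counts were 35 and 18. Along all 6 genes, the outermost starts of Auts2, Camta1, Phactr3 and Ptprn2 were accessible in both libraries and those of Nav2 and Asic2 were not.

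Footprints were present in both libraries in 112 of the 129 shared distal regions (86.8%), beside 93.9% over all shared distal regions. The shortfall lay at Phactr3, where 10 of 20 regions had a footprint in both, against 21 of 21 at Auts2, 22 of 23 at Camta1, 20 of 21 at Nav2, 21 of 24 at Asic2 and 18 of 20 at Ptprn2. Of the 13 regions under 0.3 in both libraries 15.4% had footprints in both, and of the 114 regions at 0.3 or more in both 94.7% had them, where the genome had 20.6% and 94.4%. The median number per region was 3 in each library at Auts2, Camta1, Nav2 and Asic2, 2 at Ptprn2, and 1.5 and 1 at Phactr3. Auts2 had up to 6 and 8 in 1 region.

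Motif letters were counted in 200 bp windows on the centres of the 129 shared distal regions, on both strands, beside all 26833. The nuclear factor I element TTGGCA was in 24.03% (genome 21.5%), CAGATG in 25.6% (23.0%), CAGCTG in 14.7% (19.8%), the SOX element CATTGT in 10.9% (9.11%), AP-1, TGANTCA, in 7.75% (6.11%), the LIM homeobox element TAATTA in 3.10% (3.80%) and the POU octamer ATGCAAAT in 0.775% (1.15%). The CRE TGACGTCA, the MEF2 element CTAAAAATA and the EGR element GCGTGGGCG were in none, at 0.410%, 0.306% and 0.153% over the genome. No motif in this series of searches contains another. Shares this near to those of the genome are not a result about the 6 genes.

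CTCF, the insulator protein that anchors chromatin loops, was searched by its 12-letter consensus. Near matches were not counted, so a region without a match may still hold similar sequence. A match was in 18 of the 129 regions (13.95%, genome 14.5%), 7 at Nav2, 5 at Asic2, 4 at Camta1 and 1 each at Phactr3 and Ptprn2. All 18 matches overlapped a footprint in replicate 1 and in replicate 2. Over the genome 98.5% of regions with a match had it in a footprint in both. For CAGATG the share was 33.3% of 33 regions, beside 31.6% over the genome. Regions with a CTCF match had median heights of 1.40 and 1.79 and those without 0.974 and 1.05, where the genome had 1.45 and 2.03 against 0.987 and 1.18. At the 6 genes 7 of the 18 were among the first 3 distal regions of their gene by mean rank of height. On the plus strand lay 12 matches and on the minus strand 6. At Nav2 the match at chr7:49250101-49250300, 3.36 kb from the internal start, was on the plus strand, and the next, chr7:49272561-49272740, on the minus strand.

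Relatives and partners of the 6 genes held 0 to 9 shared distal regions. Among 13 close relatives the number of shared distal regions ran from 0 to 9, with 9 at Phactr1, 7 at Nav3 and 6 at Nav1, and 5 had none, Asic3, Asic5, Camta2, Fbrs and Phactr4. The relatives were shorter, with a median of 38.9 kb. The flanks weigh more in a short gene, so counts per gene are not compared further. A promoter region was present in both libraries at 10 of the 13, and Ptprn, the nearest relative of Ptprn2, had one in replicate 2 alone. Among 19 partners, which comprised polycomb subunits of the AUTS2 complex, calmodulin genes, protein phosphatase 1 subunits and cargo of dense core vesicles, each of the 19 had a region at a start in both replicates. They held 0 to 3 shared distal regions, 3 at Pcsk2 and 2 at Calm3, and 13 had none. Over all 21938 protein-coding genes, 13008 had a region at a start in both libraries and 12256 had no shared distal region. The counts of relatives and partners are descriptions beside these.

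A list of other long neuronal genes is set beside the members as a description. The 18 genes of that list, from 910 to 2271 kb, all had a promoter region in each library, beside 735 of the 842 genes of 219.5 to 1106 kb. They held 3 to 24 shared distal regions, with a median of 8.5. Ntm, a cell adhesion gene of 968 kb, had 24, like Asic2, and Rbfox1, a splicing factor gene, had 20. Erbb4, the neuregulin receptor gene of 1076 kb, had 3, and Kcnip4, Lrp1b and Magi2 had 5 each. Per 100 kb the list had a median of 0.655 and a highest value of 2.43, and the 6 genes had a median of 2.43. Because the 6 genes were chosen on their count, their higher counts and densities describe the choice.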

How the data were processed

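Positions are on mm10, per the labels. For each of 2 libraries the authors deposited a shorter and a longer list of accessible regions, a footprint list and a false discovery rate for each listed base. The region value is a signal height deposited by the authors, and heights are given for each library. The deposited false discovery rates, read as adjusted p-values of the authors, are listed to 0.05, and every row of the footprint lists carries a p-value of 0.01, read as a limit. The sources used here do not name the caller, its version, its threshold or the sequencing depth, so the precision of single values is unknown.

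Gene models came from GENCODE mouse M21 on GRCm38. Loci were bodies plus 10 kb, distal regions lay over 1000 bp from any start, and sharing meant an overlap of at least 1 bp, counted on the regions of replicate 1. The shorter list was the main one. The members and lists were chosen with earlier results of these data known. The genes named are the 6 members, their overlapping genes, those near the threshold of 20, and listed relatives, partners, long neuronal genes and markers; 1 listed gene is not reported here by name. For each member its first 3 distal regions and its first promoter region by mean rank of height over both libraries were to be named. Alternatives were the longer list, the stronger 50%, promoter distances of 500 and 2500 bp, reciprocal overlap of 50%, loci with 50 kb or no flank, each replicate alone, other footprint and start definitions, and, added after seeing the data, a height of at least 0.3 and neighbours under 1 kb counted once. No test was made, since there is 1 group of 2 libraries. Counting steps were checked on random intervals with known answers. Python 3.11.15, pandas 2.3.3, NumPy 2.4.6, SciPy 1.17.1, pysam 0.24.0 and matplotlib 3.10.9 were used.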

Additional observations from a re-analysis of the deposited data

How the results depend on the processing

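No paired analysis was possible because there is 1 group. At the 6 genes the count of shared distal regions was 129, and it was 214 with the longer list and 58 with the stronger 50% of regions. Each library alone, with no sharing required, gave 150 to 191. Accessible starts numbered 38 of 61, and 17 of 21 with the basic annotation, which holds fewer starts. The mean of the 2 libraries' median heights was 1.09, against 0.810 with the longer list, 1.52 with the stronger 50%, 1.19 with reciprocal overlap, 1.20 without heights under 0.3, 1.23 with neighbours under 1 kb counted once and 0.896 to 0.952 with a replicate left out. Median spacing was 21.5 kb, against 13.6, 47.0, 25.9, 23.9 and 27.8 kb under the same 5 alternatives in that order and 14.8 to 16.98 kb with a replicate left out. The share with a footprint in both libraries was 86.8%, against 79.9%, 100%, 94.3%, 94.7% and 97.2% in that order. With a replicate left out, 83.3% to 85.9% of all distal regions of the remaining library had a footprint in that library, which is a different measure. The last 2 of these 5 alternatives were chosen after seeing the data. Of 68 values for the 6 genes together, 45 moved by less than the spread between replicates or, for counts, by at most 1.5 times. So did 59 of 72 counts of single genes. For the share of regions found in the other library that spread was 14.2 points, between 86.0% and 65.97%. None of the alternatives for this share counted as moved, so they say little about its stability. The stronger 50% left 3 regions at Phactr3 and the height limit 6. Depth, which is unknown, limits how a region missing from 1 library can be read.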
